A study of Mus musculus with 40 samples.

Results

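Follicular B cells that lacked Ikaros and had met their antigen for 1 day were set against anergic follicular B cells, which live with the same antigen permanently. Both groups are C57BL/6 mouse cells that carry MD4, a B cell receptor transgene specific for hen egg lysozyme (HEL), and both were sorted by flow cytometry straight from the animal. The Ikaros-deficient HEL-exposed group has 5 RNA-seq libraries of genotype MD4 Cd23-cre Ikzf1(fl/fl), from mice given HEL intravenously 1 day before. The anergic group has 3 libraries whose mice add ML5, the transgene that supplies soluble HEL: 1 is Ikzf1(fl/fl) without Cre (replicate 1), 1 is Ikzf1(fl/+) without Cre (replicate 2), and 1 is Cd23-Cre Ikzf1(fl/+) (replicate 3). These 8 libraries are all libraries of the 2 groups within 1 library series, the set whose title numbers begin with 57, and they are 8 of the 28 RNA-seq libraries with a file and of 40 samples in all. Beside them stand the 5 HEL-exposed controls of the same series, MD4 Ikzf1(fl/fl) without Cre and given HEL for 1 day, and 3 naive libraries, of which 2 are MD4 Ikzf1(fl/+) and 1 is MD4 Cd23-cre Ikzf1(fl/+). The series is about the part Ikaros plays in anergy induction. The comparison therefore asks how far Ikaros-deficient cells on their first day with antigen stand from cells that became anergic with Ikaros.

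Ikaros is a zinc finger DNA-binding protein of lymphocytes that can silence or sustain genes, in part through chromatin remodelling complexes. Anergy is the state in which a B cell that keeps binding a self-antigen survives but no longer responds fully. In such cells the receptor signals at a low level without pause, so genes that are switched on within minutes of receptor signalling, such as those of the EGR and NR4A transcription factors, stay active. Cd23-cre is switched on late in B cell development, so that Ikzf1 is lost in cells that have largely matured.

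The 2 groups differ in several ways at once: Ikzf1 genotype, 1 day against permanent exposure, the source of HEL, and Cre (5 of 5 libraries against 1 of 3). These cannot be told apart within the comparison, and the HEL-exposed controls, which share the day of HEL but keep Ikzf1, are given beside it. Nothing in the labels ties each replicate to an animal of its own, and the p-values hold only for the spread among these libraries, part of which may be technical. Because the anergic group is 1 library of each genotype, its spread includes the genotypes. Sequencing gave 14126482 to 25424264 gene reads per library. Xist and Y-linked transcripts marked 2 of the 5 Ikaros-deficient libraries and 3 of the 3 anergic libraries as male, so sex is unequal between the groups. In bulk RNA, fewer cells of a type and less RNA per cell cannot be told apart. Levels are given as TPM, which counts reads per length of gene, after median-ratio scaling between libraries. Differences are on a log2 scale, in the direction Ikaros-deficient HEL-exposed minus anergic unless another is named, and their error is the standard error (SE) of the limma fit.

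Ikzf1 was measured first, as a check of the labels. It was at 73.9, 72.6, 73.0, 64.9 and 82.1 scaled TPM in Ikaros-deficient replicates 1 to 5 and at 254, 269.9 and 164 scaled TPM in anergic replicates 1 to 3. All 5 Ikaros-deficient libraries lay under all 3 anergic ones, and the lowest anergic value belonged to replicate 3, which carries Cre and 1 floxed allele. The difference was -1.60 ± 0.15 (limma adjusted p = 2.05e-05, n = 5 and 3). The HEL-exposed controls held 203 to 256 scaled TPM. Naive libraries held 133 and 200 without Cre and 128 with Cre, so a value under that of anergic replicate 3 also occurred without Cre. The gene-level value adds transcripts with and without the deleted part, so the remaining 73.3 ± 6.11 scaled TPM (SD) does not measure intact message. Among relatives of Ikaros, Ikzf3, which encodes Aiolos, was at 285 ± 30.8 against 315 ± 39.7 scaled TPM and did not pass (-0.14 ± 0.11, limma adjusted p = 0.317). Ikzf5 did not pass either (-0.20 ± 0.08, limma adjusted p = 0.0681), and Ikzf2 and Ikzf4 were below the minimum level for testing. These calls rest on the scaling and fit: with TPM as deposited Ikzf3 and Ikzf5 were both called lower (limma adjusted p = 0.0109 and 0.00198), and Ikzf5 also with upper-quartile scaling (0.0439), the fit of 16 libraries (0.0303) and array weights (0.0158).

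Across all genes the groups stood far apart. Of 10582 genes tested, 4800 were called at an adjusted p under 0.05, which is 45.4% of them. Of these, 2552 genes (24.1% of those tested) were higher in Ikaros-deficient HEL-exposed cells and 2248 (21.2%) were lower. A change of at least 2-fold was seen for 755 called genes (7.13%), 494 higher and 261 lower, and 109 of the higher and 36 of the lower ones changed at least 4-fold. For 4516 genes (42.7%) the values of the groups did not overlap. The median log2 difference over all genes was -0.01. The balance of the directions rests on the scaling: with TPM as deposited the median was -0.30 and the called genes were 1263 higher and 5407 lower. Counts with TPM as deposited are therefore given beside gene lists. With a term for sex 2803 genes were called, and among male libraries alone, 2 against 3, 1850 were.

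**Figure D1:**
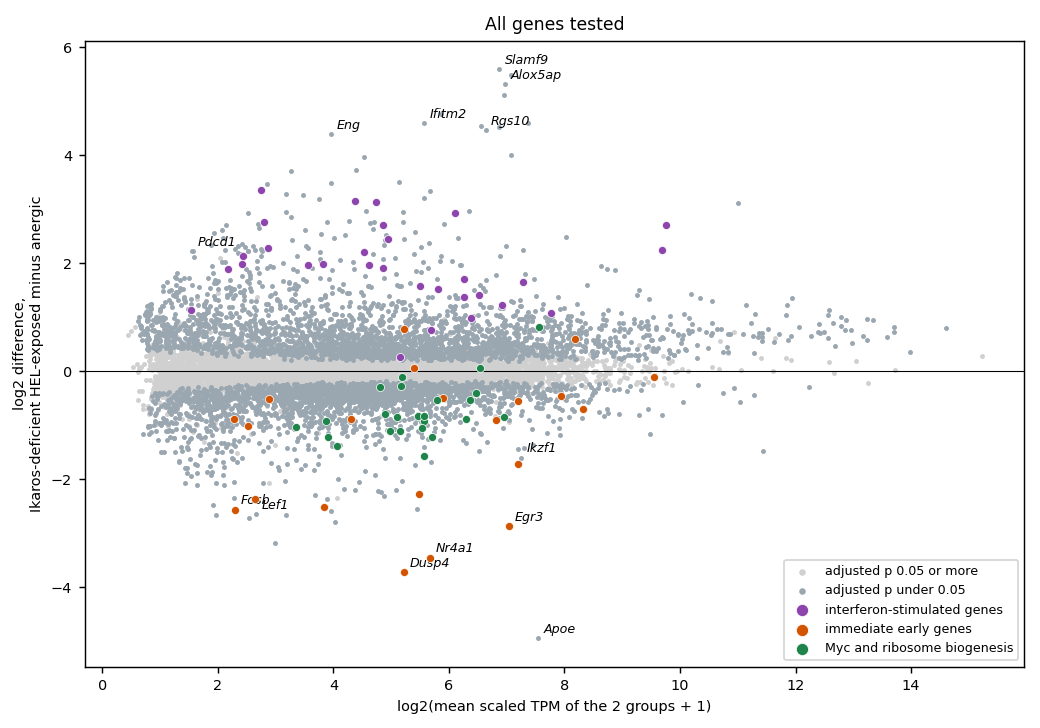
Each dot is 1 of the 10582 genes tested, with the log2 of its mean scaled TPM over both groups (plus 1) on the horizontal axis and its log2 difference, Ikaros-deficient HEL-exposed minus anergic, on the vertical axis; colours mark 3 gene lists. The 30 interferon-stimulated genes all lie above 0, Slamf9 is at the top with a difference of 5.59, and Apoe is at the bottom with -4.94.

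The most raised gene was Slamf9, which encodes a receptor of the SLAM family of leukocyte surface molecules. It was at 266, 210.0, 246, 192 and 227 scaled TPM in the Ikaros-deficient HEL-exposed libraries and at 3.07, 2.95 and 5.56 scaled TPM in the anergic ones. The groups were far from overlapping (difference 5.59 ± 0.17, limma adjusted p = 2.64e-08). The HEL-exposed controls lay in between at 14.6 to 21.4 scaled TPM, and naive cells held a mean of 14.2. The neighbouring genes Tmem176a and Tmem176b, which encode membrane proteins of intracellular vesicles, followed. Tmem176a was at 265, 303, 245, 248 and 251 scaled TPM against 2.62, 3.90 and 10.3 in anergic cells. Tmem176b was at 232, 268, 218, 241 and 238 scaled TPM against 4.52, 4.31 and 10.3. For both, anergic replicate 3 was the highest of its group and still far under the lowest Ikaros-deficient library. The differences were 5.49 ± 0.28 for Tmem176a and 5.12 ± 0.21 for Tmem176b. Alox5ap, the membrane protein that presents arachidonic acid to 5-lipoxygenase in leukotriene synthesis, was at 242 ± 28.8 against 5.84 ± 4.27 scaled TPM (5.31 ± 0.28).

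The 12 most raised genes fell into different patterns once the HEL-exposed controls were set beside them. For Ifitm2, a membrane protein that restricts virus entry, the values were 117, 95.3, 67.5, 77.7 and 94.8 scaled TPM in Ikaros-deficient cells, 2.05, 1.74 and 5.16 in anergic cells and 3.19, 2.31, 3.69, 3.51 and 2.19 in HEL-exposed controls. The controls with Ikaros thus lay in the range of the anergic libraries. In the fit of all 4 groups of the series, Ifitm2 differed by 4.52 ± 0.22 between Ikaros-deficient and control cells after HEL (limma adjusted p = 6.27e-10), and by 0.08 ± 0.25 between HEL-exposed control and anergic cells (limma adjusted p = 0.843). These contrasts share the middle group and are given side by side, not as independent results. Eng, the endoglin co-receptor of TGF-beta family ligands, had the same order of values in these groups: 28.5, 35.1, 24.8, 27.8 and 27.6 scaled TPM in Ikaros-deficient cells against 0.197, 0.183 and 1.02 in anergic cells, with 0.354 to 0.852 in HEL-exposed controls. Its gene model overlaps another, so its level is uncertain. Naive cells set the 2 genes apart, at 7.48, 2.10 and 8.37 scaled TPM for Eng and 0.668, 1.47 and 2.07 for Ifitm2. Anergic minus naive was -2.14 ± 0.31 for Eng and 0.67 ± 0.28 for Ifitm2. Aif1, an actin-bundling calcium-binding protein of activated macrophages, was at 42.4 ± 8.64 against 1.90 ± 1.20 scaled TPM and at 2.21 ± 0.897 in HEL-exposed controls.

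Rgs10, a protein that shortens G protein signalling, showed another pattern. It was at 232, 195, 193, 152 and 172 scaled TPM in Ikaros-deficient HEL-exposed cells and at 8.16, 4.36 and 11.8 scaled TPM in anergic cells, and HEL-exposed controls held 83.6, 70.0, 61.7, 60.3 and 30.0. The controls lay above every anergic library and under every Ikaros-deficient one. The difference from anergic cells was 4.46 ± 0.23, beside 1.67 ± 0.25 from HEL-exposed controls and 2.78 ± 0.29 between those controls and anergic cells. Ifitm3 (4.60 ± 0.43) and Ly6c2, a surface antigen induced by interferon (4.51 ± 0.52), were also higher in HEL-exposed controls than in anergic cells (2.95 ± 0.56 and 2.76 ± 0.60). For these 2 genes the groups overlapped: control replicate 5 was at 24.7 scaled TPM for Ifitm3 and 14.5 for Ly6c2, under anergic replicate 3 at 30.8 and 29.5. Dkkl1, a secreted protein related to the Dickkopf inhibitors of Wnt signalling, was at 111 ± 19.1 against 3.49 ± 2.52 scaled TPM (4.76 ± 0.27). Sirpa, the inhibitory receptor for CD47, was at 37.6 ± 6.67 against 2.11 ± 1.5 (3.72 ± 0.25). For these last genes HEL-exposed controls lay nearer the anergic level, at 5.45 to 9.96 scaled TPM for Dkkl1 and 3.90 to 4.64 for Sirpa. Ikaros-deficient minus control was 3.64 ± 0.24 for Dkkl1 and 2.85 ± 0.18 for Sirpa. Control minus anergic was 1.12 ± 0.28 and 0.87 ± 0.21.

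**Figure D2:**
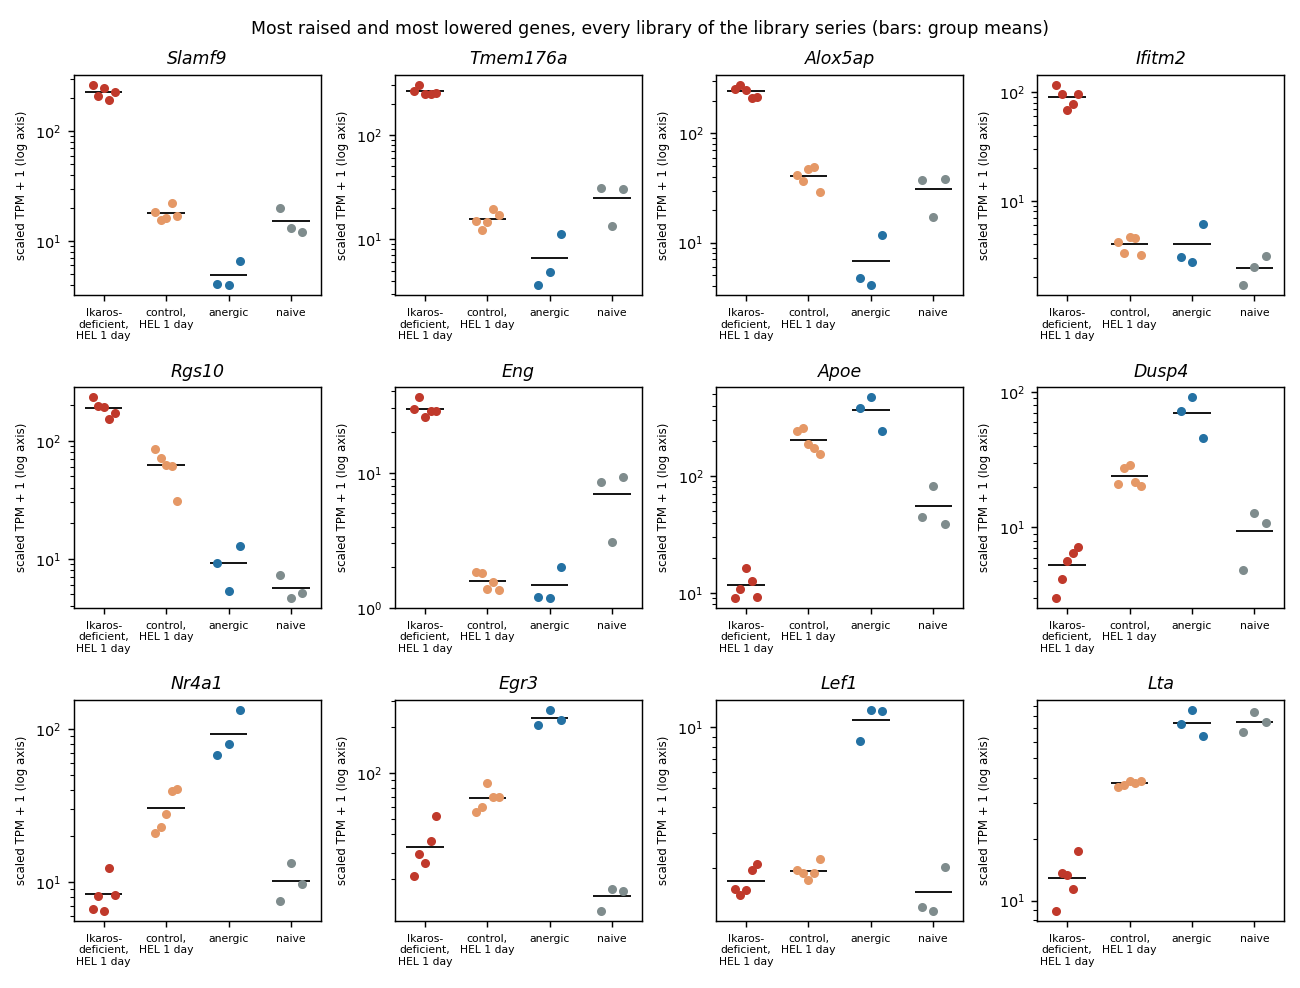
Each point is 1 library, on a log axis of scaled TPM plus 1, for 6 of the most raised and 6 of the most lowered genes in the Ikaros-deficient HEL-exposed (5), HEL-exposed control (5), anergic (3) and naive (3) groups; black bars are group means. For Ifitm2 and Eng the HEL-exposed controls lie with the anergic libraries, whereas for Lef1 they lie with the Ikaros-deficient ones.

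Several of these genes are best known from myeloid cells, so markers of other cells were measured in the same libraries. Of 13 myeloid markers 9 were tested, 4 were higher and 1 was lower, against 24.1% and 21.2% of all genes. Their summed level was 36.6 to 51.0 scaled TPM in Ikaros-deficient HEL-exposed cells and 8.43 to 68.9 in anergic cells. Cd68, a lysosomal glycoprotein, was the largest of these transcripts in the Ikaros-deficient group, at 31.9, 29.3, 25.1, 23.5 and 23.2 scaled TPM against 5.11, 4.00 and 8.39 (2.05 ± 0.18). Itgam, Ccl6 and Lyz2 were the other raised markers, and the macrophage antigen Adgre1 (Emr1 in the files) was at 0.295, 0.175, 0.200, 0.136 and 0.282 scaled TPM against 1.19, 1.04 and 2.22, lower in all 5 libraries (-1.0 ± 0.17). The anergic sum was highest in replicate 3, where the complement gene C1qa was at 14.1 scaled TPM, beside 1.62 and 0.504 in replicates 1 and 2. Of 8 dendritic cell markers 5 were tested and 4 were higher, namely Bst2, Flt3, Siglech and Cd209a, of which Bst2 is also an interferon-stimulated gene. Siglech, a receptor of plasmacytoid dendritic cells, was at 3.12, 2.26, 1.94, 1.60 and 1.67 scaled TPM against 0.0977, 0 and 0. The part of such cells in the raised genes was not tested. Neutrophil markers summed to at most 0.744 scaled TPM in any of the 8 libraries. The 10 T cell markers summed to 72.8 to 111 scaled TPM in Ikaros-deficient and 67.1 to 106 in anergic libraries, beside 7.74 to 14.6 in naive ones. Nearly all of it was the kinase Lck, at 107, 91.0, 109.8, 72.2 and 111 against 82.8, 66.1 and 105 scaled TPM, which did not pass (limma adjusted p = 0.308), while Cd8b1 and Themis were listed at 0 in all 8 and the other members stayed under 1. The 8 NK cell markers summed to 5.13 to 9.26 against 15.1 to 19.3 scaled TPM, nearly all of it Prf1, which encodes perforin and was lower at 4.62, 8.13, 5.85, 6.49 and 8.70 against 17.6, 19.1 and 14.6 (-1.24 ± 0.17, limma adjusted p = 2.41e-04). Ncr1, Gzma, Gzmb and Klra8 were listed at 0 in all 8. Of 10 markers of follicular B cells tested 1 rose and 2 fell (7 fell with TPM as deposited, and 2 rose without Ikaros-deficient replicate 5 or anergic replicate 3), and Ms4a1, Cd79a, Cd79b, Cd22, Pax5 and Fcer2a did not pass.

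Interferon-stimulated genes were higher as a whole list: 30 of 30 tested members rose and 0 fell, where 24.1% of all genes rose. Their median difference was 1.97, beside -0.01 for all genes. The values of the groups did not overlap for any of the 30, against 42.7% of all genes tested without overlap. With TPM as deposited 29 rose, with a term for sex 29, and among male libraries 27. Many promoters of such genes are known to hold a response element made of repeated GAAA blocks. The 250 bases before the RefSeq start of 3 members are shown because they carry this repeat. Oasl2, named by the same rule as Igtp and Oas3, has 0 matches in its window and is not shown, although its transcript rose too. The build is GRCm38.p6, each promoter is read 5′ to 3′ on the strand of its gene, and capitals mark the repeat as searched: GAAA, any 2 bases, then GAAA. Igtp is at chr11:58199306-58199555 on the plus strand, Oas3 at chr5:120777660-120777909 on the minus strand, and Isg15, added after its values were seen, at chr4:156200819-156201068 on the minus strand.
Igtp: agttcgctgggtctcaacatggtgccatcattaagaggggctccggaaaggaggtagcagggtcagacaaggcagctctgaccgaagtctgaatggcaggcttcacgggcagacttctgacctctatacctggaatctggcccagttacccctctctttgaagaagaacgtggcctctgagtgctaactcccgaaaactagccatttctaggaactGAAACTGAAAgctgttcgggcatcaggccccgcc
Oas3: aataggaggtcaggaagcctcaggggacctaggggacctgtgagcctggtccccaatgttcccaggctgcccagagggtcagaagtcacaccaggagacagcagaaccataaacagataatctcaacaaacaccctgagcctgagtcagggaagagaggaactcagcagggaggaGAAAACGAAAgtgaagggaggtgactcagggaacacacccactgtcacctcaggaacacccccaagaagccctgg
Isg15: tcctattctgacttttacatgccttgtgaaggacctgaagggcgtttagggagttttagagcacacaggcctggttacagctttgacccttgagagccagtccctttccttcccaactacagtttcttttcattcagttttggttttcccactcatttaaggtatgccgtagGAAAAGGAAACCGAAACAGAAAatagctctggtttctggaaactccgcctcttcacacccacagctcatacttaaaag
The repeat begins 34 bases before the start of Igtp and 75 before that of Oas3, and in Isg15 it occurs 3 times in overlap, from 78, 72 and 66 bases before the start. Searched on both strands, the repeat was found in 11 of the 20 list members with a promoter entry (55.0%), in 821 of 27025 promoters of all genes (3.04%) and in 209 of 7904 promoters of genes tested (2.64%). A match is a string of letters and not a measured binding site, and the count does not enter any test.

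The transcripts of these 3 genes were high in every Ikaros-deficient HEL-exposed library. Oas3, an oligoadenylate synthetase that activates RNase L, was at 65.7, 47.6, 46.9, 39.2 and 34.6 scaled TPM against 3.62, 3.03 and 7.08 in anergic cells (3.13 ± 0.24, limma adjusted p = 6.44e-06). Isg15, a ubiquitin-like modifier, was at 178, 124, 133, 94.8 and 72.6 scaled TPM against 11.8, 9.08 and 26.5 (2.93 ± 0.33). Igtp, a GTPase of defence against intracellular pathogens, was at 108, 111, 97.3, 121 and 107 scaled TPM against 42.0, 35.7 and 47.5 (1.37 ± 0.10, limma adjusted p = 5.84e-06). No library of either group reached into the other, and the highest anergic library was replicate 3 for each of the 3. Oasl2 (2.71 ± 0.21) and Oas2 (2.76 ± 0.25), relatives of Oas3, were raised as well. The smallest difference in the list was that of Ddx58, which encodes the RNA sensor RIG-I (0.27 ± 0.09, limma adjusted p = 0.0258).

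HEL-exposed controls held high levels of the same transcripts. The summed level of the 30 genes was 5655, 5200, 5263, 4196 and 3516 scaled TPM in Ikaros-deficient HEL-exposed replicates 1 to 5. It was 7242, 5761, 4664, 4909 and 1972 scaled TPM in HEL-exposed control replicates 1 to 5, 1168, 868 and 1568 in anergic replicates 1 to 3, and 1747 to 1870 in naive cells. Control replicate 5 stood well under the other controls, near the naive level. For Oas3 the difference between Ikaros-deficient and control cells after HEL was 0.16 ± 0.44 (limma adjusted p = 0.824), beside 2.98 ± 0.51 between those controls and anergic cells (limma adjusted p = 4.66e-04). For Igtp the same values were 0.30 ± 0.23 and 1.06 ± 0.26.

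**Figure D3:**
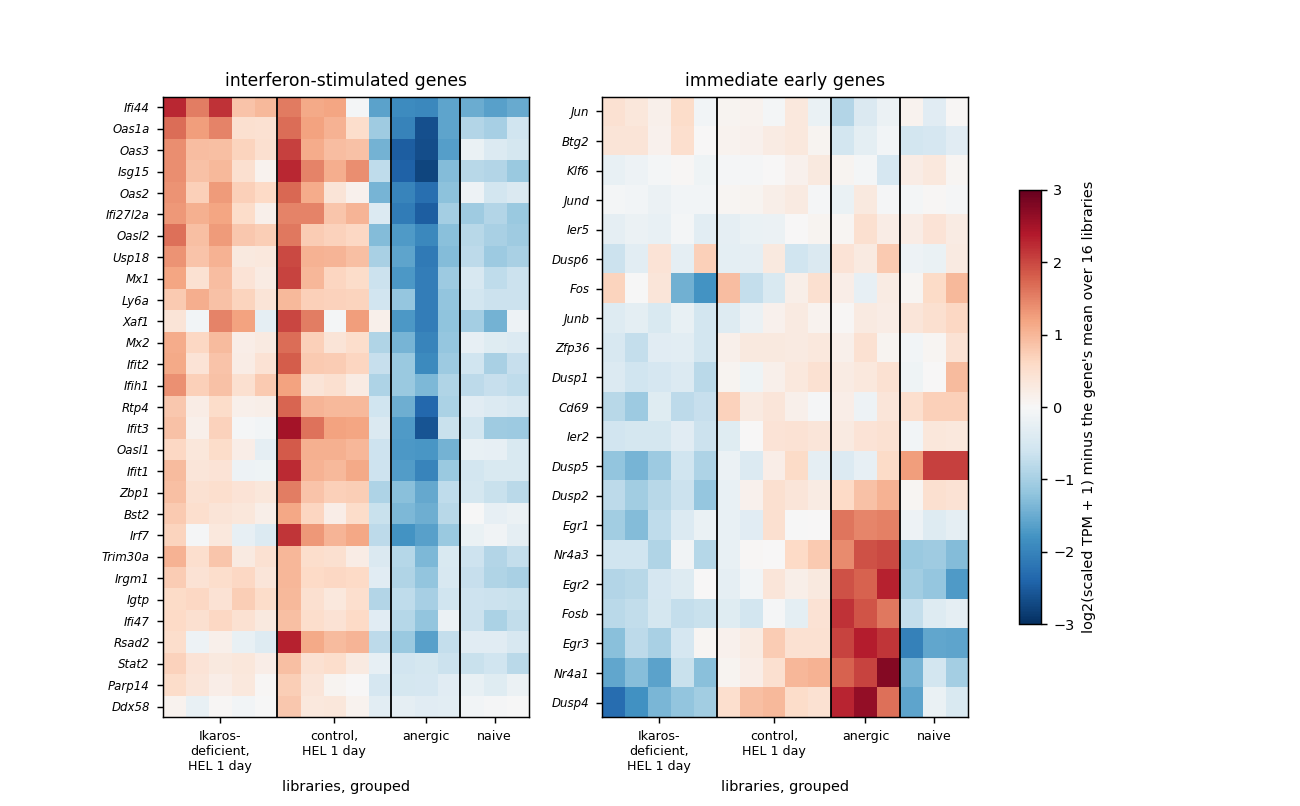
Rows are 29 of the 30 interferon-stimulated genes (left) and immediate early genes (right), columns are the 16 libraries of the series in 4 groups, and colour is the log2 of scaled TPM plus 1 minus the mean of the gene over the 16 libraries. On the left, anergic columns are low and HEL-exposed columns are high with or without Ikaros, apart from the last control column; on the right, the lower rows from Egr1 to Dusp4 are high in the 3 anergic columns.

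At the other end, Apoe was the most lowered gene. It encodes apolipoprotein E, a carrier of cholesterol and other lipids. Apoe was at 8.05, 9.93, 15.2, 11.7 and 8.33 scaled TPM in Ikaros-deficient HEL-exposed cells and at 378, 468 and 241 in anergic cells, with 241, 258, 186, 174 and 153 in HEL-exposed controls. The lowest anergic library, replicate 3, stood at 241 scaled TPM, and no Ikaros-deficient library exceeded 15.2. The difference from anergic cells was -4.94 ± 0.23 (limma adjusted p = 4.67e-07), beside -4.13 ± 0.23 from HEL-exposed controls and -0.81 ± 0.26 between those controls and anergic cells. Lta, which encodes lymphotoxin alpha, was at 7.90, 12.6, 12.3, 10.4 and 16.5 scaled TPM against 72.2, 84.3 and 63.1 (-2.54 ± 0.19), and its gene model overlaps another. Nod1, a cytosolic sensor of bacterial peptidoglycan, was at 1.4 ± 0.209 against 14.8 ± 4.94 scaled TPM (-2.66 ± 0.19), and Faah, the hydrolase of fatty acid amides, at 0.511 ± 0.234 against 13.4 ± 6.00 (-3.18 ± 0.24).

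Most immediate early genes were lower in Ikaros-deficient HEL-exposed cells than in anergic cells. Of 24 in the list 21 were tested, of which 15 fell and 2 rose, against 21.2% and 24.1% of all genes, and the median was -0.89. Among male libraries 14 fell and neither of the 2 raised members was called, and with TPM as deposited 17 fell and 1 rose. Nr4a1, an orphan nuclear receptor that marks receptor signalling in lymphocytes, was at 5.65, 7.09, 5.46, 11.4 and 7.26 scaled TPM in the Ikaros-deficient group and at 66.5, 79.1 and 131 in the anergic group. Dusp4, a phosphatase that inactivates MAP kinases, was at 2.01, 3.16, 4.64, 5.5 and 6.13 against 70.8, 89.8 and 44.9 scaled TPM. Egr3, a zinc finger transcription factor, was at 20.1, 28.5, 24.8, 34.9 and 51.4 against 206, 258 and 224 scaled TPM. For all 3 genes the lowest anergic library lay well above the highest Ikaros-deficient one, although lack of overlap was a condition of their choice. The differences were -3.46 ± 0.24 for Nr4a1 (limma adjusted p = 4.01e-06), -3.73 ± 0.29 for Dusp4 (limma adjusted p = 6.97e-06) and -2.87 ± 0.24 for Egr3 (limma adjusted p = 1.09e-05).

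HEL-exposed controls had intermediate levels of these transcripts. Nr4a1 was at 19.9, 21.8, 26.6, 38.1 and 39.7 scaled TPM in control replicates 1 to 5, above each Ikaros-deficient library and under each anergic one. Its difference was -1.84 ± 0.24 between Ikaros-deficient and control cells after HEL and -1.62 ± 0.27 between control and anergic cells. Egr3 had -1.11 ± 0.19 and -1.77 ± 0.22 in the same 2 contrasts, and Dusp4 had -2.22 ± 0.27 and -1.51 ± 0.31. For Fosb, a subunit of AP-1, most of the distance lay between control and anergic cells: it was at 0.409 ± 0.102 scaled TPM in Ikaros-deficient, 1.08 ± 0.600 in control and 7.46 ± 1.69 in anergic cells, with -0.52 ± 0.17 and -2.05 ± 0.19. Dusp2, another MAP kinase phosphatase, was at 66.7 ± 9.46 against 223 ± 35.3 scaled TPM (-1.73 ± 0.13). Naive means were 9.16 scaled TPM for Nr4a1, 8.44 for Dusp4, 14.5 for Egr3, 0.671 for Fosb and 157 for Dusp2. In that order, anergic minus naive was 3.18 ± 0.31, 2.94 ± 0.35, 3.90 ± 0.25, 2.33 ± 0.21 and 0.50 ± 0.17. Ikaros-deficient minus naive was -0.28 ± 0.27, -0.79 ± 0.31, 1.03 ± 0.22, -0.24 ± 0.19 and -1.22 ± 0.16. The 2 members that rose were Jun (0.77 ± 0.17) and Btg2, an inhibitor of proliferation (0.60 ± 0.13). Fos, partner of Jun in AP-1, was at 10.9, 6.43, 8.58, 1.76 and 1.15 against 7.61, 5.31 and 7.89 scaled TPM and did not pass (-0.51 ± 0.51, limma adjusted p = 0.44).

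Genes tied to anergy went both ways. Of 25 in the list 21 were tested, with 8 lower (38.1%) and 4 higher (19.0%), against 21.2% and 24.1% of all genes, and the median was -0.20. With TPM as deposited the counts were 13 lower and 4 higher. The lowered members included Nr4a1 and Egr3 and also Egr2, which was at 2.26, 2.37, 3.25, 3.60 and 5.02 against 21.4, 19.5 and 28.7 scaled TPM (-2.51 ± 0.20), and the EGR co-repressor Nab2 (-1.40 ± 0.21, an overlapping gene model). Ndrg1, a factor that maintains anergy in T cells, was at 8.49, 7.28, 7.0, 8.46 and 13.7 against 27.3, 26.3 and 54.1 scaled TPM (-1.84 ± 0.25), while HEL-exposed controls were lower than both groups at 0.857 to 2.15. Other lowered members were Stac2 (-1.72 ± 0.23), Pacsin1 (-1.16 ± 0.18) and the transcriptional repressor Gfi1 (-1.26 ± 0.18).

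The 4 raised members of the anergy list were Lag3, Pdcd1, Nab1 and Spry2. Pdcd1, which encodes the inhibitory receptor PD-1, was at 6.16, 3.34, 3.53, 2.52 and 3.86 scaled TPM in Ikaros-deficient HEL-exposed cells and at 0, 0.0565 and 0 in anergic cells (2.22 ± 0.20, limma adjusted p = 1.69e-05). It was at no more than 0.0461 scaled TPM in any HEL-exposed control. Lag3, another inhibitory receptor and a ligand of MHC class II, was at 15.8, 8.47, 9.02, 7.61 and 9.38 against 0.935, 0.871 and 2.14 scaled TPM (2.26 ± 0.23). Nab1, the relative of Nab2, was at 42.8 ± 2.94 against 20.5 ± 4.57 scaled TPM (1.05 ± 0.12), and the signalling inhibitor Spry2 differed by 0.65. Both inhibitory receptors were thus higher in all 5 Ikaros-deficient libraries than in any anergic one. Among members that did not pass were the calmodulin-binding Pcp4 (25.1 ± 7.54 against 31.4 ± 24.5 scaled TPM, -0.10 ± 0.37) and Nrgn (89.1 ± 9.31 against 127 ± 79.8, -0.33 ± 0.28). For both, anergic replicate 3 was far above the other anergic libraries, at 59.6 scaled TPM for Pcp4 and 218 for Nrgn. Lag3, Nab1, Nab2, Spry2, Ndrg1, Pacsin1, Gfi1, Pcp4, Nrgn, Jun, Btg2, Fos and Ddx58 were named after their values were seen.

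Myc and the genes of ribosome assembly were lower in Ikaros-deficient HEL-exposed cells. Of 24 tested 19 fell and 1 rose, against 21.2% and 24.1% of all genes, and the median was -0.85. For TPM as deposited the counts were 22 and 1, and among male libraries 18 fell. Rrs1, an assembly factor of the large ribosomal subunit, was at 22.0, 21.3, 19.6, 22.3 and 22.8 scaled TPM against 46.0, 48.7 and 48.8 in anergic cells (-1.11 ± 0.07, limma adjusted p = 3.39e-06). Rrp12, needed for export of ribosomal subunits, was at 8.32, 7.81, 7.41, 7.85 and 10.3 against 23.9, 25.0 and 20.9 scaled TPM (-1.38 ± 0.11). Both genes separated the groups with wide gaps, and HEL-exposed controls lay between them at 30.8 to 34.1 and 13.3 to 16.3 scaled TPM. Nolc1 (-1.06 ± 0.08) and Rrp9 (-0.93 ± 0.08), nucleolar proteins that work with small nucleolar RNAs, fell as well. Myc itself was at 24.4, 24.8, 31.1, 33.1 and 40.4 against 65.0, 74.9 and 75.5 scaled TPM (-1.22 ± 0.15). The raised member was the nucleolar chaperone Npm1, at 238 ± 22.2 against 138 ± 35.1 scaled TPM (0.81 ± 0.15). Myc and Npm1 were named after their values were seen.

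The transcripts of the ribosomal proteins themselves, a list chosen after values were seen, had the opposite direction to the assembly factors. Of 78 tested 66 rose and 0 fell, against 24.1% and 21.2% of all genes, with a median of 0.71, and at an unadjusted p under 0.05 limma gave 69 and 0. Voom on recovered reads called 66 and 0. With TPM as deposited 51 rose and 1 fell, with a term for sex 50 rose, and among male libraries 33 did. Their share of all deposited TPM was 20.7% to 23.7% in Ikaros-deficient HEL-exposed cells and 15.0% to 18.5% in anergic cells. It was 21.4% to 23.4% in HEL-exposed controls and 14.2% to 15.4% in naive cells, so both groups with 1 day of HEL held the higher share. Since TPM is relative to a fixed sum, a larger share of these abundant transcripts reduces the TPM of all others. Ribosomal protein genes have many processed copies in the genome, and how reads shared with such copies were counted is not given in the sources used here.

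**Figure D4:**
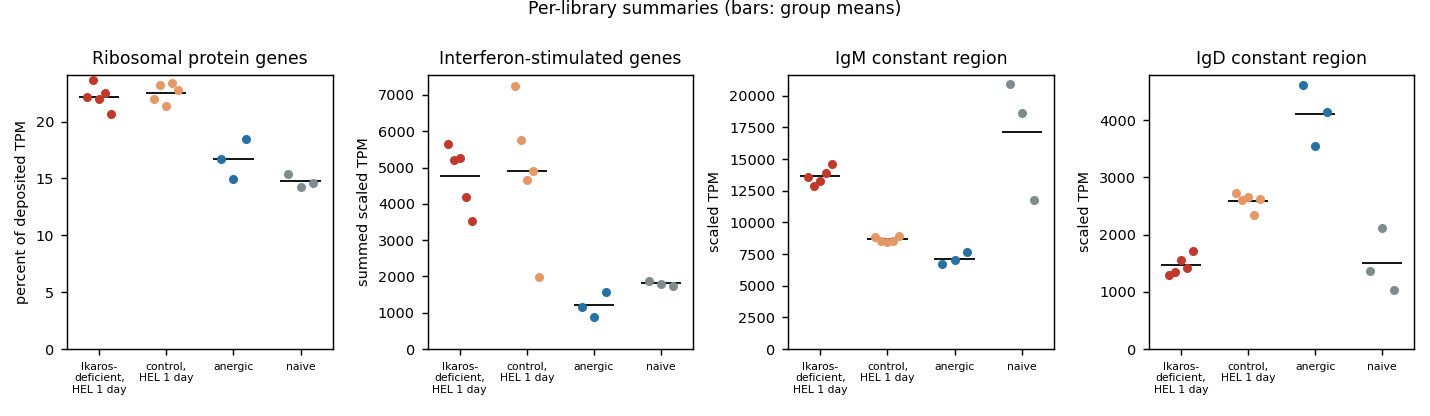
Each point is 1 library and each bar a group mean, for the share of deposited TPM in ribosomal protein genes (percent), the summed scaled TPM of 30 interferon-stimulated genes, and the scaled TPM of the IgM and IgD constant regions. Ribosomal protein shares separate groups with 1 day of HEL from anergic and naive cells, and IgD is lowest among the antigen-exposed groups in the Ikaros-deficient one.

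Metabolic genes moved less uniformly. Of 10 tested genes for serine and one-carbon synthesis 5 fell and 2 rose, against 21.2% and 24.1% of all genes, and 7 and 2 with TPM as deposited. Mthfd1l and Mthfd1, enzymes of folate metabolism, were at 13.2 ± 1.88 against 31.8 ± 4.43 and at 17.6 ± 2.31 against 35.1 ± 0.969 scaled TPM (-1.21 ± 0.12 and -0.96 ± 0.10). Shmt1 (-1.45 ± 0.16) and Shmt2 (-0.84 ± 0.09, an overlapping gene model), which transfer the one-carbon unit from serine, fell too. The raised members were Mthfd2 (1.04 ± 0.15), named after its value was seen, and the thymidylate synthase Tyms (1.33 ± 0.20). Of 19 tested cholesterol synthesis genes 4 rose (21.1%) and 5 fell (26.3%), near the 24.1% and 21.2% of all genes. With single anergic libraries left out the lowered count was 3 (without replicate 1) or 11 (without replicate 3), and 10 with TPM as deposited. The 4 that rose were Pmvk (1.05 ± 0.08), Mvd (1.02 ± 0.13) and Mvk (1.10 ± 0.17), kinases and a decarboxylase of the mevalonate steps, and the sterol isomerase Ebp (0.90 ± 0.09). Of 17 glycolysis genes 3 rose (17.6%) and 6 fell (35.3%), against 24.1% and 21.2% of all genes. The counts were 2 and 10 for TPM as deposited and 2 and 2 with a term for sex. Gpi1, the glucose phosphate isomerase, was at 540.0 ± 29.9 against 276 ± 13.6 scaled TPM (0.97 ± 0.08), and the glucose transporter Slc2a3 at 17.8 ± 1.47 against 28.0 ± 3.23 (-0.62 ± 0.10).

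At the antigen receptor, the heavy chain constant regions went in opposite directions. The IgM constant region was at 13547, 12909, 13264, 13923 and 14592 scaled TPM in Ikaros-deficient HEL-exposed cells and at 6681, 7033 and 7635 in anergic cells (0.94 ± 0.10, limma adjusted p = 4.06e-05). The IgD constant region was at 1294, 1345, 1557, 1418 and 1715 scaled TPM against 4616, 3553 and 4140 (-1.48 ± 0.12, limma adjusted p = 9.66e-06). Neither pair of groups overlapped. The MD4 transgene encodes both isotypes, and its transcripts cannot be told apart from those of the cells' own heavy chain locus. HEL-exposed controls were between the groups for both, at 8648 ± 189.6 scaled TPM for IgM and 2585 ± 147 for IgD. Naive libraries held 20957, 18596 and 11751 scaled TPM for IgM and 1370, 2118 and 1032 for IgD. The Ikaros-deficient values of both lay within these naive ranges, and the anergic values lay outside them.

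Within the signalling chain of the receptor, 7 of 24 tested genes rose and 5 fell, close to the 24.1% and 21.2% of all genes. With TPM as deposited 2 rose and 11 fell. Without Ikaros-deficient replicate 1, 3 or 5 the lowered count was 3. The raised members included the exchange factors Vav2, at 89.4 ± 3.59 against 60.6 ± 5.15 scaled TPM (0.56 ± 0.08), and Vav3, at 17.6 ± 2.61 against 8.78 ± 1.33 (0.92 ± 0.13), and the calcium release channel Itpr1 (0.51 ± 0.08, which did not pass with TPM as deposited). Rasgrp1, which links diacylglycerol to Ras, was lower at 28.3, 25.1, 28.1, 29.0 and 28.7 against 44.6, 47.7 and 47.7 scaled TPM (-0.73 ± 0.08). Of 19 inhibitory receptors and phosphatases 7 rose and 3 fell, or 4 and 9 with TPM as deposited. Fcgr2b, the inhibitory Fc receptor of B cells, was at 186, 169, 151, 165 and 137 against 79.0, 82.1 and 77.3 scaled TPM (1.00 ± 0.10). Every Ikaros-deficient library exceeded every anergic one for this gene. Fcrla, an Fc receptor-like protein of the endoplasmic reticulum, was at 898 ± 58.6 against 470.2 ± 46.7 scaled TPM (0.93 ± 0.09), and the collagen receptor Lair1 at 2.79 ± 0.550 against 0.298 ± 0.180 (1.54 ± 0.16). Among calcium genes the channel Cacna1i was at 4.80, 6.22, 7.49, 8.03 and 4.15 against 34.7, 45.9 and 18.9 scaled TPM (-2.21 ± 0.26), the pump Atp2a2 fell by a smaller amount (-0.51 ± 0.08), and the list had 2 higher and 5 lower of 14, or 0 and 9 with TPM as deposited and 1 and 5 without anergic replicate 1.

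Toll-like receptors and their chaperones had 5 of 11 tested members higher and 1 lower, against 24.1% and 21.2% of all genes, and 3 and 2 with TPM as deposited. Tlr7, the endosomal receptor of single-stranded RNA, was at 30.4, 25.7, 30.2, 21.2 and 21.2 scaled TPM in Ikaros-deficient HEL-exposed cells and at 8.03, 4.66 and 11.5 in anergic cells (1.62 ± 0.22, limma adjusted p = 2.59e-04). Tlr2, a surface receptor of bacterial lipoproteins, was at 27.0, 25.4, 26.0, 25.1 and 25.0 against 9.84, 9.09 and 13.2 scaled TPM (1.20 ± 0.11, limma adjusted p = 1.69e-05). All libraries of the first group were higher for both receptors. The HEL-exposed controls differed between them: Tlr7 was at 11.2 to 36.8 scaled TPM there, overlapping both groups, and Tlr2 at 9.13 to 12.7, within the anergic range. Their contrasts were 0.10 ± 0.25 and 1.52 ± 0.29 for Tlr7, and 1.19 ± 0.10 and 0.01 ± 0.11 for Tlr2, in the order Ikaros-deficient minus control and control minus anergic. Ly86, the partner of the CD180 receptor, rose (0.76 ± 0.12), and Tlr1, which pairs with Tlr2, fell (-0.54 ± 0.08). Tlr9, the receptor of CpG DNA, named for its known role, was at 204 ± 27.3 against 176 ± 25.2 scaled TPM and did not pass (0.21 ± 0.12).

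Downstream of these receptors, the adaptors Ticam1 (0.85 ± 0.10) and Myd88 (0.63 ± 0.08) and the interferon regulatory factor Irf7 (1.57 ± 0.24) were higher, and the kinase Irak2 was lower, at 39.7 ± 3.28 against 75.9 ± 5.94 scaled TPM (-0.92 ± 0.09). The list of adaptors, kinases and brakes had 5 higher (25.0%) and 7 lower (35.0%) of 20, against 24.1% and 21.2% of all genes. With TPM as deposited the counts were 4 and 12. The lowered count was 4 without Ikaros-deficient replicate 1, 2, 3 or 4 or without anergic replicate 1 or 2, and 1 with a term for sex. Of 14 NF-kB subunits and inhibitors 5 were lower and 0 higher, against 21.2% and 24.1% of all genes. At an unadjusted p under 0.05, limma gave 6 lower and 0 higher, and voom on recovered reads called the counts 5 and 0. The lowered count was 14 with TPM as deposited, 2 without anergic replicate 2, and 1 with a term for sex. The member that held throughout was Nfkbid, a nuclear IkB protein, at 15.3, 15.9, 17.1, 24.5 and 20.4 against 56.7, 84.3 and 53.9 scaled TPM (-1.74 ± 0.18, limma adjusted p = 3.30e-05). Nfkbia (-0.38 ± 0.10), Rel (-0.47 ± 0.14) and Relb (-0.37 ± 0.11) differed by less, and these 3 were no longer called once sex entered the fit.

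Among genes of mature B cell identity 11 of 22 fell and 1 rose, with a median of -0.27, against 21.2% and 24.1% of all genes. With TPM as deposited 19 fell, and among male libraries 7, while 2 rose without Ikaros-deficient replicate 5 or anergic replicate 3. Satb1, a chromatin organizer of lymphocytes, was at 24.8, 26.6, 25.6, 30.8 and 26.7 scaled TPM against 63.2, 67.6 and 60.9 (-1.22 ± 0.08, limma adjusted p = 4.00e-06). The complement regulator Cd55 (-1.15 ± 0.13) and the B lineage factor Ebf1 (-0.70 ± 0.09) fell, and the tetraspanin Cd37 rose from 2169 ± 195 to 3722 ± 89.1 scaled TPM (0.78 ± 0.09). Genes of early B cells, of which 6 of 12 were tested, had 4 lower and 0 higher, against 21.2% and 24.1% of all genes, with the same counts at an unadjusted p under 0.05 in limma and with voom on recovered reads. The lowered count was 5 with TPM as deposited, 3 with a term for sex and 2 among male libraries, and without Ikaros-deficient replicate 4 there was 1 raised member of 7 tested. Lef1, a transcription factor of the Wnt pathway used in B cell progenitors, was at 0.572, 0.463, 0.558, 0.959 and 1.09 against 7.53, 11.2 and 11 scaled TPM, and HEL-exposed controls held 0.748 to 1.23. Sox4, another progenitor factor, was at 4.16, 5.30, 5.31, 7.73 and 5.58 against 16.9, 26.3 and 35.0 scaled TPM, and the controls held 2.29 to 5.0. For both genes it was the anergic libraries that stood high, with the HEL-exposed groups together under them. The differences from anergic cells were -2.65 ± 0.17 and -2.0 ± 0.21, beside -0.18 ± 0.15 and 0.55 ± 0.21 from HEL-exposed controls, which did not pass (limma adjusted p = 0.416 and 0.0619). Myb and Cd93 were also lower than in anergic cells (-1.21 ± 0.27 and -0.95 ± 0.23), but they differed between the HEL-exposed groups. Myb was at a mean of 2.13 scaled TPM in Ikaros-deficient and 0.516 in control cells (1.03 ± 0.20, limma adjusted p = 7.4e-04). Cd93 was at 3.82 and 1.60 (0.85 ± 0.19, limma adjusted p = 0.0023).

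Of 16 homing receptors and integrins 4 rose (25.0%, near the 24.1% of all genes) and 6 fell (37.5%, against 21.2%), and 2 and 11 with TPM as deposited. Among male libraries 3 rose and 3 fell. The integrin chain Itgb1 was at 68.2, 54.4, 43.8, 45.9 and 50.6 against 14.9, 13.3 and 23.5 scaled TPM (1.58 ± 0.18), and the follicle-homing receptor Cxcr5 was lower, at 286 ± 25.6 against 484 ± 50.0 (-0.76 ± 0.10). Marginal zone and Notch genes had 4 higher and 4 lower of 11 (3 and 7 with TPM as deposited, 2 and 3 with a term for sex), with the sphingosine phosphate receptor S1pr3 (-1.86 ± 0.17), the Notch ligand Dll1 (-1.30 ± 0.19) and the Notch target Dtx1 (-0.96 ± 0.15) lower. Rbpj, of the same list, was raised, at 12.9 ± 0.783 against 8.88 ± 0.193 scaled TPM (0.50 ± 0.08). Plasma cell genes had 5 higher and 1 lower of 10, or 4 and 3 with TPM as deposited. Ssr4, a subunit of the translocon-associated complex, was at 757, 952, 749, 687 and 523 against 185, 173 and 237 scaled TPM (1.87 ± 0.17), and Creb3l2, a transcription factor of the secretory pathway, at 13.7 ± 1.88 against 4.04 ± 0.469 (1.54 ± 0.11). Ssr4 and Creb3l2 serve secretion in general. Slamf7, a receptor of the SLAM family, was also raised, at 35.7 ± 3.60 against 18.2 ± 4.01 scaled TPM (0.95 ± 0.13). Mzb1, also a member of the marginal zone and Notch list, was raised too, at 811 ± 134 against 463 ± 43.4 (0.80 ± 0.14). The plasma cell regulator Prdm1 was under 1 scaled TPM on average in both groups and was not tested. Germinal centre genes had 3 higher and 2 lower of 8 (2 and 3 with TPM as deposited, and 3 and 4 of 9 without anergic replicate 3), with the cytokine subunit Ebi3 raised (1.59 ± 0.14, an overlapping gene model) and the repressor Bcl6 lowered, at 53.7 ± 6.79 against 115 ± 28.6 scaled TPM (-1.06 ± 0.15).

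Among survival genes, 7 of 14 tested members of the Bcl2 family rose and 4 fell, against 24.1% and 21.2% of all genes, or 3 and 5 with TPM as deposited. Bcl2, which blocks apoptosis, was at 18.2, 19.9, 19.2, 22.1 and 22.9 scaled TPM against 43.5, 46.3 and 41.6 (-1.06 ± 0.09, limma adjusted p = 1.23e-05), and its relative Bcl2l2 went the other way, at 15.4, 15.0, 13.5, 15.3 and 15.1 against 5.45, 5.07 and 7.03 (1.22 ± 0.10, limma adjusted p = 1.14e-05). Both separated the groups fully. The death agonist Bid was lower (-0.89 ± 0.08). Cytokine and TNF receptors had 7 higher and 4 lower of 17 (5 and 9 with TPM as deposited), with Csf2rb, the shared signalling chain of several cytokine receptors (2.77 ± 0.15, an overlapping gene model), and Il6ra (1.27 ± 0.10) higher and Il21r lower (-0.88 ± 0.08). Cell cycle genes had 9 higher and 3 lower of 23, and 3 and 6 with TPM as deposited. Leaving out single libraries gave 6 to 10 higher, and 1 lower without Ikaros-deficient replicate 3 or 4 or anergic replicate 1 or 3, and with a term for sex 4 were higher and 1 lower. Aurkb, a mitotic kinase, was at 19.2 ± 2.44 against 7.72 ± 1.85 scaled TPM (1.23 ± 0.14), and Cdk6 was lower (-1.07 ± 0.12). Of genes of the TGF-beta and Wnt pathways, 5 of 16 rose and 4 fell. The lowered count was 10 with TPM as deposited and 0 with a term for sex. The catenin Ctnnd1 was at 21.0, 18.3, 15.5, 18.6 and 22.0 scaled TPM against 1.01, 0.458 and 2.04 (3.27 ± 0.20), with 0.520 to 0.740 in HEL-exposed controls. Class II presentation and costimulation genes had 5 higher and 2 lower of 16, against 24.1% and 21.2% of all genes, or 1 and 8 with TPM as deposited and 1 and 1 with a term for sex. The lowered count was 1 without anergic replicate 1 and 4 without anergic replicate 2. The raised members included the class II genes H2-Oa (0.74 ± 0.10, an overlapping gene model), H2-DMa (0.40 ± 0.09) and H2-DMb2 (0.36 ± 0.09). The ICOS ligand Icosl fell (-0.86 ± 0.12).

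**Figure D5:**
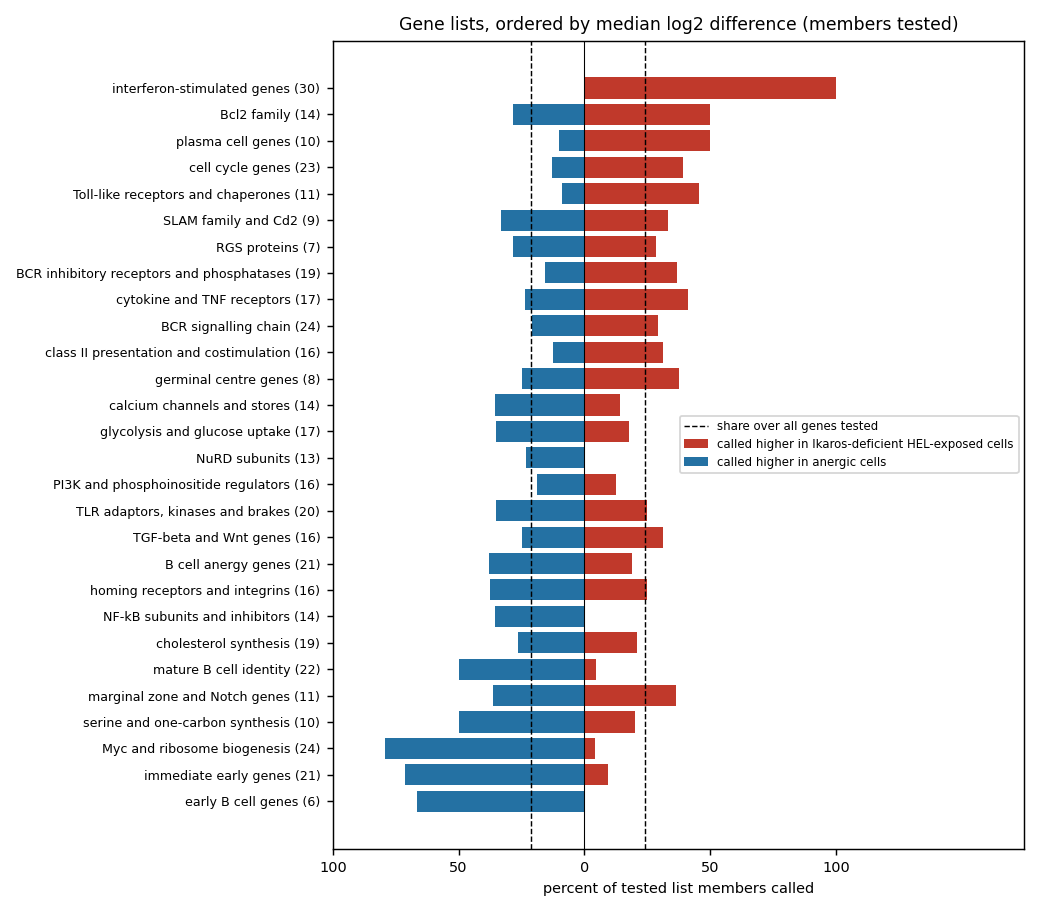
Bars give the percent of tested list members called higher in Ikaros-deficient HEL-exposed cells (red, to the right) or higher in anergic cells (blue, to the left), with the number tested in brackets, and dashed lines give the shares over all genes, 24.1% and 21.2%. The interferon-stimulated list reaches 100% on the right, and the Myc and ribosome biogenesis, immediate early and early B cell lists reach furthest to the left.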

How the data were processed

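Polyadenylated RNA of sorted cells was sequenced, per the labels' protocols. The authors deposited TPM, 1 file of 24732 genes per library. Per the submitters' processing notes the build was mm9, and the tools listed are SAMtools 1.4, featureCounts 1.5.0, Bowtie, TopHat 1.4.1 and deepTools 3.0.1. The role of each tool, the annotation and the strandedness are not given in the sources used here. The deposited TPM step by single reads within each gene. Whole reads, within 0.01, were recovered for 16694 of 16694 genes above 0 in at least 2 of 16 libraries, and 1538 genes seen in 1 library were not recovered. Identifiers carry the tag OVL for 3539 genes and DUP for 474, read here as overlapping and duplicated models, and these are uncertain, as are antisense partners. Chi-square per degree of freedom between replicates was 9.89 to 23.1 in Ikaros-deficient and 21.1 to 50.2 in anergic pairs, so none was counted as a duplicate.

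TPM were divided by median-ratio factors, computed against the geometric mean of the 8 libraries and ranging from 0.881 to 1.20. Genes with scaled TPM of 1 or more in at least 3 libraries entered a two-sided limma test (limma 3.58.1, R 4.3.3) of log2(scaled TPM + 1), with Benjamini-Hochberg adjustment over all genes tested and a threshold of 0.05. This scale understates the change of genes at low levels. Contrasts with HEL-exposed controls or naive cells come from a single fit of the 16 libraries of the series. The test was checked on simulated data.

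Named genes were Ikzf1 to Ikzf5, the 12 most raised and 12 most lowered called genes (mean of 5 scaled TPM or more in the group where they are high, no overlap between groups, and neither antigen receptor segments nor placeholder symbols), up to 4 called members per pathway list by smallest adjusted p or, with none called, 2 by level, and defining markers of other cells. Of 539 list genes 535 were found in the files. The members and lists were chosen with earlier results of these data known. Alternatives were other scalings, pseudocounts of 0.1 and 5, other filters, voom on recovered reads, array weights, leaving out each library and, added after seeing the data, a term for sex and male libraries only. Promoters are RefSeq, GRCm38.p6, matched by symbol at the first listed start, and none of their coordinates were compared with mm9. The ATAC-seq and ChIP-seq samples, and RNA-seq libraries outside this library series, were not analysed here. Some items are not reported here.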

Additional observations from a re-analysis of the deposited data

Results flagged for a closer look

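For 10 of 124 genes examined, 1 of the 5 Ikaros-deficient HEL-exposed libraries stood apart from the other 4, with a gap over the range above Dixon's critical value of 0.71. Chance alone gives this in about 1 in 20 groups. The gap was upward in replicate 2 for Gpi1 (0.923 of the range, 593 scaled TPM beside 525 to 530.4), Ebi3 (0.728, 65.7 beside 45.2 to 50.8) and Flt3 (0.725, 19.9 beside 10.2 to 12.9). In replicate 5 it was upward for Slamf7 (0.846, 42.0 scaled TPM beside 33.3 to 34.6), Mthfd1 (0.732, 21.6 beside 16 to 17.5) and Cdk6 (0.722, 7.0 beside 4.64 to 5.30). Ets2 was high in replicate 4 (0.758, 3.79 scaled TPM beside 2.74 to 2.99). A low library was seen for Rasgrp1 in replicate 2 (0.778, 25.1 scaled TPM beside 28.1 to 29.0), Il21r in replicate 1 (0.844, 205 beside 225 to 228) and Bcl2l2 in replicate 3 (0.77, 13.5 beside 15.0 to 15.4). Each of these 10 genes kept its call and direction with the library in question left out. Groups of 3, such as the anergic libraries, were not examined in this way.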

How the results depend on the processing

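All 24 most raised and lowered genes kept their call and direction under every alternative they were tested in, although Eng and Lta were not tested without overlapping or duplicated models. These genes were chosen from the same libraries for large differences without overlap, so this outcome was largely set by the choice. Of 122 named genes called, 115 kept the call with TPM as deposited, 111 with a term for sex and 104 of 120 tested among male libraries, and 0 reversed. The total of 4800 called genes became 2803 with a term for sex (1605 higher and 1198 lower) and 1850 among male libraries (1123 higher and 727 lower). With TPM as deposited 1263 were higher and 5407 lower, where the median difference was -0.30. The 755 genes changed at least 2-fold became 359 with a pseudocount of 5, which shrinks changes at low levels. Leaving out single libraries gave 3795 to 5253 called genes, from 2072 to 2779 higher and from 1723 to 2474 lower, with the fewest without anergic replicate 1 and the most without anergic replicate 3. Ikzf3 turned from -0.14 to 0.018 with a term for sex and to 0.030 among male libraries, and was not called in either. The planned fit with sex required both sexes in both groups and was not run as planned: the added term rests on the Ikaros-deficient libraries alone. No paired analysis was possible because the labels carry no replicate numbers. Those used here follow the order of the title numbers within each group. The median SE over all genes was 0.11 on the log2 scale, which limits how small a difference 5 and 3 libraries can show.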

Other observations

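Of 13 subunits of NuRD, a chromatin remodelling complex that Ikaros can recruit, 3 were lower and 0 higher in Ikaros-deficient HEL-exposed cells. The lowered share was 23.1%, near the 21.2% of all genes, and 24.1% of all genes were higher. The unadjusted limma test at 0.05 and voom on recovered reads each gave 1 higher and 3 lower, TPM as deposited 0 and 11, a term for sex 0 and 1, and leaving out anergic replicate 2 gave 2 and 3. Chd3, a helicase of the complex, was at 58.7 ± 6.37 against 87.2 ± 15.9 scaled TPM (-0.55 ± 0.12, limma adjusted p = 0.00407), and the call was lost with a term for sex. Of 16 regulators of PI3K and phosphoinositides 2 rose and 3 fell, under the 24.1% and 21.2% of all genes, or 1 and 9 with TPM as deposited and 2 and 1 with a term for sex. Pik3cg, a catalytic PI3K subunit, was at 18.5, 20.4, 24.9, 20.5 and 28.1 against 50.2, 52.7 and 37.1 scaled TPM (-1.02 ± 0.15, limma adjusted p = 3.74e-04), and the lipid phosphatase Inpp4b at 5.36 ± 0.562 against 2.15 ± 0.256 (1.01 ± 0.11).

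In the SLAM family, to which the most raised gene Slamf9 belongs, 3 of 9 tested members rose and 3 fell, against 24.1% and 21.2% of all genes, or 3 and 4 with TPM as deposited. The lowered count was 1 without Ikaros-deficient replicate 1, 2 or 4 or anergic replicate 1 or 3. Slamf1 was at 7.35, 6.10, 11.6, 8.47 and 10.4 scaled TPM against 21.6, 24 and 25.9 in anergic cells (-1.37 ± 0.17, limma adjusted p = 1.14e-04). Slamf8 was low in both groups, at 1.32 ± 0.332 against 0.140 ± 0.103 (1.02 ± 0.16). RGS proteins, to which Rgs10 belongs, had 2 higher and 2 lower of 7, or 1 and 3 with TPM as deposited. Rgs13 was at no more than 0.246 scaled TPM in any Ikaros-deficient library, and at 1.96, 1.53 and 6.70 in anergic replicates 1 to 3 (-1.79 ± 0.31, limma adjusted p = 0.00102).

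TGGGAA, the core of the Ikaros recognition sequence, was searched on both strands in the 250 bases before the start. It was in 21.5% of 27025 promoters of all genes, in 1 of the 10 genes with a promoter entry among the most raised and 2 of the 9 among the most lowered, and not in the windows of Slamf9, Tmem176a and Apoe. A match is a description of letters and not a binding site.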
